A study of Mus musculus with 48 samples.

Results

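To ask whether the hippocampus of *Cyfip2*+/- mice matures along the same course as that of WT mice, the change in expression from postnatal week (PWK) 1 to PWK 7 was compared between the genotypes. The comparison used 16 of the 48 libraries of the series, which were all of its hippocampus libraries at these ages. They formed 4 groups of 4 mice, namely WT and *Cyfip2*+/- mice at PWK 1 and WT and *Cyfip2*+/- mice at PWK 7. All mice were C57BL/6N and the WT mice were littermates of the heterozygotes. The heterozygotes carry a single functional copy of *Cyfip2* in every cell type from conception on, and the paper describes CYFIP2 as mainly neuronal. Neither the sex of a mouse nor its age in days is given in the labels, and the hippocampus was taken from both hemispheres. Mice of different ages are different animals, so a course is a difference between groups of mice and was not followed within a mouse. For each gene the quantity of interest was the interaction, that is, the change with age in *Cyfip2*+/- mice minus the change with age in WT mice. It equals the genotype difference at PWK 7 minus that at PWK 1, and it was computed on log2 of the normalized count plus 1.

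CYFIP2 is a subunit of the WAVE regulatory complex, which waits in an inactive state until the small GTPase Rac binds it and then switches on the Arp2/3 complex to branch actin filaments. Branched actin shapes growth cones, dendritic spines and presynaptic terminals, and CYFIP proteins also bind the fragile X protein FMRP. Between the first postnatal week and young adulthood, hippocampal neurons stop extending axons, exchange growth-associated and juvenile cytoskeletal proteins for mature ones and form most of their synapses, while oligodendrocytes begin to make myelin and microglia take on their adult state. A bulk library measures RNA from all of these cells together, so fewer cells of a type and less RNA per cell cannot be told apart.

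The libraries held markers of hippocampal neurons at both ages. *Prox1* of dentate granule cells averaged 4328 and *Wfs1* of CA1 pyramidal cells 4018 over the 16 libraries. The lowest mean log2 level of the dentate granule cell list in a library was 9.39 at PWK 1 and 10.41 at PWK 7. That of the CA1 list was 11.18 and 11.00. Libraries of a group correlated with each other by 0.984 to 0.990 across genes. The estimated depth was 25.5 to 35.7 M fragments (M for mega) in WT and 28.7 to 32.8 M in *Cyfip2*+/- mice at PWK 1. It was 35.9 to 36.2 M in both genotypes at PWK 7, so depth differed between the ages. It was also uneven between the genotypes at PWK 1. WT replicates 1 to 3 were at 28.4, 26.1 and 25.5 M, below all *Cyfip2*+/- libraries, and WT replicate 4 was at 35.7 M, above all of them. Libraries of PWK 1 stood apart within both genotypes. To place them, the mean log2 level of 1045 genes that fell at least 2-fold from PWK 1 to PWK 7 in the frontal cortex was subtracted from that of 1217 genes that rose at least 2-fold there. At PWK 1 this score was -1.28, -1.15, -1.53 and -1.60 in WT replicates 1 to 4 and -1.76, -1.82, -1.50 and -1.61 in *Cyfip2*+/- replicates 1 to 4. Replicates 3 and 4 of both genotypes thus lay together, WT replicates 1 and 2 lay toward the PWK 7 state and *Cyfip2*+/- replicates 1 and 2 lay away from it. At PWK 7 the score ran from 0.99 to 1.04 in WT and from 1.00 to 1.13 in *Cyfip2*+/- mice. Results are therefore also given without each of these pairs of replicates. Each pair was chosen as an extreme of its group on this score. Leaving it out therefore narrows the genotype difference of genes that follow the score, and it makes a group smaller. Values without a pair describe the spread between libraries and do not test a result.

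*Cyfip2* (ENSMUSG00000020340; GRCm38 chromosome 11, 46193850 to 46312859, minus strand, protein coding) rose with age in parallel in the genotypes. Its normalized count at PWK 1 was 16944, 17408, 16615 and 15701 in the WT libraries and 11111, 11099, 12670 and 12397 in the *Cyfip2*+/- libraries. In the older mice it was 25227, 25736, 24342 and 25858 in WT and 18093, 16971, 17006 and 19569 in *Cyfip2*+/- libraries. Every *Cyfip2*+/- library lay below every WT library of its age. The gene rose by 0.60 in WT (adjusted p = 5.02e-08, limma) and by 0.60 in *Cyfip2*+/- mice (adjusted p = 3.69e-08, limma) on the log2 scale. It was lower in the heterozygotes by a log2 difference of -0.50 (SE 0.05) at PWK 1 and -0.50 (SE 0.05) at PWK 7. The interaction was -0.0024 with a 95% interval from -0.16 to 0.16 (exact permutation test of the genotype labels within each age, two-sided, p = 0.991), so a change in the deficit of more than 0.16 lay outside that interval.

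*Cyfip1*, the paralog that can take the place of CYFIP2 in the complex, was at 3929 ± 105 (SD, n = 4) in WT and 3794 ± 249 (SD, n = 4) in *Cyfip2*+/- mice at PWK 1. At the later age it was at 4088 ± 151 (SD, n = 4) and 4139 ± 252 (SD, n = 4). Its interaction was 0.07 (SE 0.07) and the genotypes overlapped at both ages. Of the 18 genes of the WAVE complex and its partners, 6 rose and 4 fell in WT mice, where 28.2% and 28.6% of all genes did, and 9 rose and 5 fell in *Cyfip2*+/- mice, where 30.8% and 30% did. The median interaction of the list was 0.05, with 13 of the 18 genes positive. The member with the smallest interaction p was *Rac3*, a Rac GTPase of developing neurons. Its count at PWK 1 was 1822, 1554, 2158 and 2260 in WT and 2627, 2756, 2291 and 2326 in *Cyfip2*+/- libraries, without overlap. At PWK 7 it was between 348 and 388 in WT and between 297 and 382 in *Cyfip2*+/- libraries, with overlap. Its course was -2.39 in WT and -2.88 in *Cyfip2*+/- mice, a fall in both, and its interaction was -0.49 (SE 0.15). *Wasf3*, one of the WAVE proteins, rose by 0.39 in WT and by 0.54 in *Cyfip2*+/- mice, an interaction of 0.16. *Eif4e*, the cap-binding translation factor that CYFIP proteins contact, had an interaction of -0.25, with courses of 0.04 in WT and -0.21 in *Cyfip2*+/- mice. The list of the Arp2/3 complex and actin turnover had a median interaction of 0.0086 over 22 genes, 11 of them positive.

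Across the genome, the courses of the genotypes were much alike. Of 17581 genes tested, 9995 (56.9%) changed with age in WT mice, 4966 (28.2%) upward and 5029 (28.6%) downward. In *Cyfip2*+/- mice 10693 (60.8%) changed, 5418 (30.8%) upward and 5275 (30%) downward. Both genotypes shared 8904 of these calls, which is 89.1% of the WT calls and 83.3% of the *Cyfip2*+/- calls. Of the shared genes, 4432 rose and 4470 fell in both genotypes, and 2 went in opposite directions. The courses, which have no library in common, correlated by r = 0.920 (Spearman rho 0.910) over the genes tested, and genes are not independent of each other. The SD of the course over genes was 0.75 in WT and 0.83 in *Cyfip2*+/- mice.

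**Figure D1:**
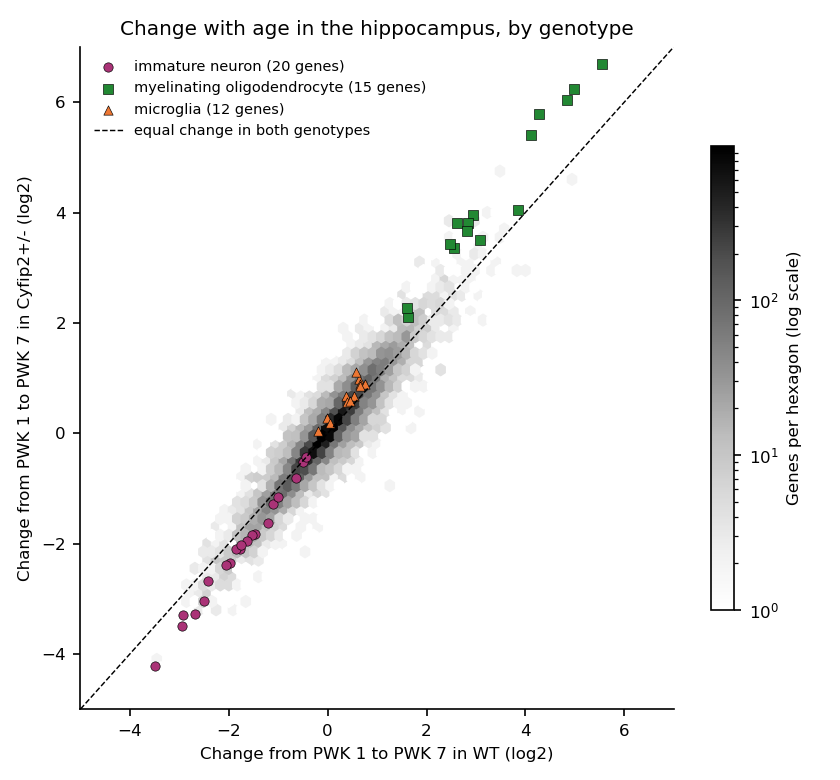
Change from PWK 1 to PWK 7 in *Cyfip2*+/- mice (vertical axis, log2) against that in WT mice (horizontal axis, log2) for 17581 genes, shaded by the number of genes per hexagon, with 3 gene lists drawn as points and the line of equal change dashed. All 15 genes of myelinating oligodendrocytes and all 12 of microglia lie above the line, and 19 of the 20 genes of immature neurons lie below it.

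No gene had an interaction with an adjusted p below 0.05 (limma, 0% of genes). The smallest adjusted p was 0.629. At an unadjusted p below 0.05 there were 1215 genes (6.91%), 572 with a positive (3.25%) and 643 with a negative interaction (3.66%). The median interaction was 0.0018, the quartiles were -0.10 and 0.11, and 92.0% were within 0.5 of 0. The 95% interval of a gene reached a median of 0.28 to either side, without adjustment for the number of genes. An absolute interaction over 1 was found for 283 genes, none of which passed. Without WT replicates 1 and 2 of PWK 1, 663 of 17499 genes had an unadjusted p below 0.05. Without *Cyfip2*+/- replicates 1 and 2 of PWK 1, 694 of 17479 did. A smaller group also gives less power. Counts of list genes without a pair, given below, are to be set beside these counts and not beside the shares from all 16 libraries.

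The genotype differences that make up the interaction lay mostly at PWK 1. There, 2 genes passed an adjusted p of 0.05 (limma, 0.0114% of genes), both lower in *Cyfip2*+/- mice, namely *Cyfip2* (adjusted p = 0.000867) and *Ptgs2* (adjusted p = 0.0364). At PWK 7, *Cyfip2* alone passed (adjusted p = 0.000809, 0.00569% of genes). An unadjusted p below 0.05 was found for 2134 genes (12.1%) at PWK 1, with 955 higher (5.43%) and 1179 lower (6.71%), and for 704 (4%) at PWK 7, with 308 higher (1.75%) and 396 lower (2.25%). The values of the genotypes did not overlap for 1040 genes (5.92%) at PWK 1, with *Cyfip2*+/- above in 584 (3.32%) and below in 456 (2.59%), and for 402 (2.29%) at PWK 7, with 188 above (1.07%) and 214 below (1.22%). When WT replicates 1 and 2 were left out no gene passed at PWK 1, although *Cyfip2* was still lower by a log2 difference of -0.45 without overlap (adjusted p = 0.0513, limma). *Ptgs2* was then at -0.70 (adjusted p = 0.585, limma), and at -0.55 without *Cyfip2*+/- replicates 1 and 2 (adjusted p = 0.271, limma). The number that passed at PWK 1 was 97 without *Cyfip2*+/- replicate 3, 87 without WT replicate 4 and 7 without WT replicate 3.

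Genes were next grouped by their course in another tissue, the frontal cortex, whose libraries are not among the 16. The 1217 genes that rose at least 2-fold there had a median hippocampal course of 1.01 in WT and 1.19 in *Cyfip2*+/- mice. Their median interaction was 0.15, and 155 of them (12.7%) had a positive and 12 (0.986%) a negative interaction at an unadjusted p below 0.05. The 1045 genes that fell at least 2-fold there had medians of -1.17 and -1.33, a median interaction of -0.17, and 7 positive (0.67%) and 156 negative (14.9%) interactions at that level. In the 15319 remaining genes the shares were 2.68% and 3.1%. The median genotype difference was -0.14 at PWK 1 and 0.01 at PWK 7 for the risers, and 0.15 and -0.02 for the fallers. The cortex and hippocampus libraries of a label were taken to come from the same mouse, so this grouping is not independent of the mice.

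Genes of immature neurons fell from PWK 1 to PWK 7 in both genotypes, and they started from a higher level in *Cyfip2*+/- mice. All 20 genes of the list, which holds transcription factors of newborn neurons and proteins of growing axons, fell in WT mice (28.6% of all genes did) and in *Cyfip2*+/- mice (30% of all genes did). The median course was -1.77 in WT and -2.06 in *Cyfip2*+/- mice. The interaction was negative for 19 of the 20 genes, with a median of -0.33, and 13 had an unadjusted p below 0.05, where 3.66% of all genes had a negative interaction at that level. At PWK 1, 18 of the 20 were higher in *Cyfip2*+/- mice at an unadjusted p below 0.05, against 5.43% of all genes, with a median log2 difference of 0.28. At PWK 7 none was higher and *Gap43*, a growth cone protein, was lower at that level, and the median difference was -0.03. None of the 20 interactions passed after adjustment over all genes (adjusted p of at least 0.629, limma). When WT replicates 1 and 2 of PWK 1 were left out the median was -0.22 with 9 genes at an unadjusted p below 0.05, and without *Cyfip2*+/- replicates 1 and 2 it was -0.22 with 9.

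*Dcx*, which encodes doublecortin, a microtubule-binding protein of migrating and newborn neurons, was at 5722, 4880, 7373 and 6865 in the WT libraries of PWK 1. In the *Cyfip2*+/- libraries it was at 9643, 11054, 7895 and 8162, all above the WT libraries. At the later age it was between 908 and 1030 in WT and between 896 and 970 in *Cyfip2*+/- libraries, which overlapped. Its interaction was -0.59 (SE 0.16), from a course of -2.68 in WT and -3.28 in *Cyfip2*+/- mice. The gene with the largest interaction of the list was *Dpysl3*, a collapsin response mediator protein of growth cones. Its counts at PWK 1 were 23701, 20610, 32934 and 33608 in WT and 45918, 46388, 34952 and 36793 in *Cyfip2*+/- libraries. They did not overlap, and the closest values came from replicates 3 and 4. Its interaction was -0.72 (SE 0.18), and -0.42 without WT replicates 1 and 2.

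*Tubb2b*, a beta-tubulin of developing neurons, was at 41384, 38252, 54147 and 53106 in WT and at 68584, 70718, 55038 and 57258 in *Cyfip2*+/- libraries at PWK 1. By PWK 7 it was at 8291, 8095, 8217 and 8117 in WT and 7835, 7587, 7460 and 7487 in *Cyfip2*+/- libraries. The *Cyfip2*+/- libraries were thus all above WT at PWK 1 and all below WT at PWK 7, and the interaction was -0.54 (SE 0.14). Beta-tubulin genes share long stretches of sequence, so reads of *Tubb2b*, *Tubb3* and *Tubb5* could be assigned to each other or to further tubulin genes. The other tubulins of the list had interactions of -0.37 (*Tubb5*) and -0.33 (*Tubb3*), and *Stmn1* and *Stmn2*, which bind tubulin dimers, had -0.41 and -0.24. *Nfia* and *Nfib*, factors that are also expressed in glia, had the smallest interactions of the list, -0.03 and 0.0096.

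*Sox4* and *Sox11* are the SoxC transcription factors that switch on the genes of newborn neurons. *Sox4* was at 2253, 2150, 2401 and 2217 in WT and at 2976, 3030, 2557 and 2853 in *Cyfip2*+/- libraries at PWK 1, without overlap. At PWK 7 it was between 704 and 853 in WT and between 718 and 828 in *Cyfip2*+/- libraries. Its interaction was -0.31 (SE 0.10) and that of *Sox11* was -0.33 (SE 0.13). The proximal promoters of these genes are shown because they are the matched members of the list with CAGCTG, a form of the E-box that proneural factors bind, in the 300 bases around the start of transcription (RefSeq, GRCm38.p6). The E-box CAGCTG, which reads the same on both strands, is in capitals. *Sox4* is read from chr13:28953650-28953949 and *Sox11* from chr12:27342669-27342968, both on the minus strand.
Sox4: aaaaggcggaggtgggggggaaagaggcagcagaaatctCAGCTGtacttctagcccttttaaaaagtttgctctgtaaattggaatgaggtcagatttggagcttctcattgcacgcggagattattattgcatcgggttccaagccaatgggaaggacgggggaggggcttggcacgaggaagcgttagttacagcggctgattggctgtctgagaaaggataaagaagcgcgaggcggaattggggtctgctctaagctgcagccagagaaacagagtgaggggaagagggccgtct
Sox11: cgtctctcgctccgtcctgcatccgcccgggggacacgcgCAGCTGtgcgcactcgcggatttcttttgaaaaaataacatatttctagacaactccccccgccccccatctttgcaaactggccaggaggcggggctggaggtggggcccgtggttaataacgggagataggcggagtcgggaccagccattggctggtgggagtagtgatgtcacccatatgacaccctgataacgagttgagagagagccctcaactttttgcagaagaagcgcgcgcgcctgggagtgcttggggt
Promoters were matched for 13 of the 20 genes, and 2 of the 13 (15.4%) held CAGCTG, against 16.3% of 32817 mouse promoters. The E-box CAGATG, searched on both strands, was in 1 (7.7%), against 17.2%. A match is a description of these letters and not evidence of binding.

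**Figure D2:**
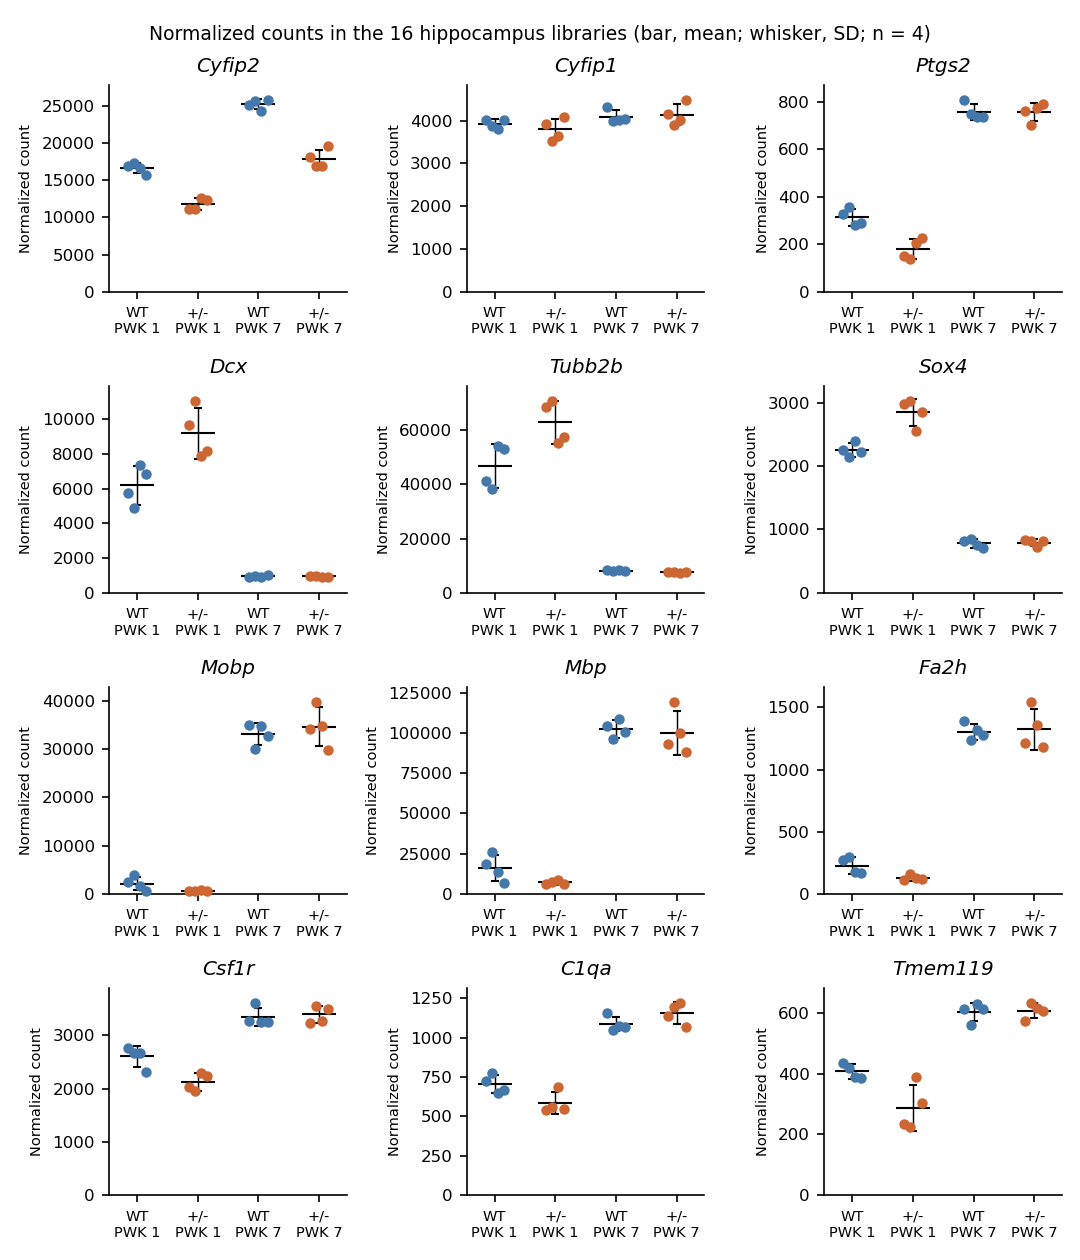
Normalized counts (vertical axes, linear, from 0) of 12 genes in the 16 libraries, by genotype and age, with a point per library, the mean as a bar and the SD as a whisker (n = 4). *Cyfip2* is lower in *Cyfip2*+/- mice at both ages, whereas at PWK 1 *Dcx*, *Tubb2b* and *Sox4* lie higher and *Ptgs2*, *Fa2h* and *Csf1r* lower in *Cyfip2*+/- mice, without overlap.

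Genes of myelinating oligodendrocytes rose with age in both genotypes, from a lower level in *Cyfip2*+/- mice. All 15 genes rose in WT (28.2% of all genes did) and in *Cyfip2*+/- mice (30.8% of all genes did), with a median course of 2.95 in WT and 3.82 in *Cyfip2*+/- mice. The interaction was positive for 15 of 15, with a median of 0.98, and 11 had an unadjusted p below 0.05, where 3.25% of all genes had a positive interaction at that level. At PWK 1, 13 of the 15 were lower in *Cyfip2*+/- mice at an unadjusted p below 0.05, against 6.71% of all genes, with a median difference of -1.03. At PWK 7 the median difference was -0.02 and none differed at that level. No interaction passed after adjustment over all genes (adjusted p of at least 0.629, limma).

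*Mobp*, which encodes a structural protein of compact myelin, was at 2443, 3821, 1702 and 527 in the WT libraries of PWK 1. In the *Cyfip2*+/- libraries it was at 531, 616, 831 and 541. WT replicate 4 lay below all *Cyfip2*+/- libraries and the other WT libraries lay above all of them. In the older mice it was at 33069 ± 2338 (SD, n = 4) in WT and 34586 ± 4064 (SD, n = 4) in *Cyfip2*+/- mice. The interaction of *Mobp* was 1.52 (SE 0.54). *Fa2h*, the hydroxylase that makes the hydroxylated galactolipids of myelin, had the smallest p of the list. It was at 269, 298, 177 and 168 in WT and 109, 156, 131 and 116 in *Cyfip2*+/- libraries at PWK 1, without overlap, and its interaction was 0.81 (SE 0.22). *Ermn*, an actin-binding protein of the myelin sheath, was at 82.6, 109, 59.2 and 32.03 in WT and 22.1, 22.7, 30.2 and 26.9 in *Cyfip2*+/- libraries at PWK 1. The groups did not overlap, although WT replicate 4 was close to the *Cyfip2*+/- libraries, and the interaction was 1.21 (SE 0.35).

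*Mbp*, which encodes myelin basic protein, had an interaction of 0.98 (SE 0.39). *Trf*, which encodes transferrin, had the smallest, 0.19 (SE 0.20). The size of the myelin interaction varied with the WT libraries left out. At PWK 1, WT replicates 1 and 2 had the highest mean log2 myelin levels of the WT libraries (9.21 and 9.65) and replicate 4 the lowest (7.79). Leaving out the former lowers the interaction by construction, and leaving out the latter raises it. Without WT replicates 1 and 2 the median interaction of the 15 genes was 0.38 and 2 had an unadjusted p below 0.05. Without *Cyfip2*+/- replicates 1 and 2 it was 0.92 with 7. Without WT replicate 4, 5 genes passed over all genes tested (limma), namely *Mobp* (adjusted p = 0.0168) and *Ermn*, *Mag*, *Mog* and *Tmem88b* (each adjusted p = 0.0411), 4 of them members of the list.

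Among the 13 genes of oligodendrocyte precursors, 6 were lower in *Cyfip2*+/- mice at PWK 1 at an unadjusted p below 0.05 (6.71% of all genes) and 1 at PWK 7 (2.25% of all genes). The 6 were *Bcas1*, *Enpp6*, *Neu4*, *Gpr17*, *Sox10* and *Tnr*, with differences from -0.54 (*Enpp6*) to -0.14 (*Tnr*). The rest ran from -0.13 (*C1ql1*) to 0.31 (*Bmp4*), with *Pdgfra* at 0.01, *Cspg4* at -0.03 and *Lhfpl3* at -0.03. The gene lower at PWK 7 was *Pdgfra*, at -0.14, where *Bcas1* was at -0.03 and *Enpp6* at -0.14. The list is thus mixed, and its median difference was -0.13 at PWK 1 and -0.13 at PWK 7. The median interaction was 0.07, with 8 of 13 positive, and it ran from -0.06 to 0.10 with 1 library left out. The difference from the myelin list was not tested. *Bcas1*, which marks cells that are about to myelinate, was the member with an unadjusted interaction p below 0.05, at 0.39 (SE 0.18). *Pdgfra*, the growth factor receptor of precursors, fell in both genotypes, with courses of -1.08 in WT and -1.23 in *Cyfip2*+/- mice.

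Of the 12 microglia genes, 9 rose in WT (28.2% of all genes) and 10 in *Cyfip2*+/- mice (30.8% of all genes). The interaction was positive for 12 of 12, with a median of 0.22, and 5 had an unadjusted p below 0.05, against 3.25% of all genes. At PWK 1, 8 of the 12 were lower in *Cyfip2*+/- mice at that level, against 6.71% of all genes, with a median difference of -0.27. At PWK 7 none was, and the median was 0.02. *Csf1r*, the receptor on which microglia depend for survival, was at 2756, 2676, 2667 and 2311 in WT and at 2021, 1946, 2283 and 2234 in *Cyfip2*+/- libraries at PWK 1. The groups did not overlap, whereas at PWK 7 they did, with 3253 to 3603 in WT and 3241 to 3555 in *Cyfip2*+/- libraries. Its interaction was 0.32 (SE 0.09).

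*Tmem119*, a marker of mature microglia, was at 436, 419, 388 and 386 in WT and at 235, 223, 388 and 304 in *Cyfip2*+/- libraries at PWK 1. *Cyfip2*+/- replicate 3 reached the lower WT values and the others lay below them. It rose by 0.57 in WT and by 1.11 in *Cyfip2*+/- mice, with an interaction of 0.54 (SE 0.18). *Cx3cr1*, the fractalkine receptor, was at 1432, 1492, 1379 and 1445 in WT and at 1075, 1131, 1336 and 1250 in *Cyfip2*+/- libraries at PWK 1, without overlap. It rose by 0.28 in *Cyfip2*+/- mice (adjusted p = 0.00262, limma) and had a course of -0.01 in WT mice (adjusted p = 0.878, limma), and the interaction of 0.30 did not pass (adjusted p = 0.632, limma). *P2ry12*, a purinergic receptor of resting microglia, did not pass in either genotype, with courses of -0.20 in WT and 0.03 in *Cyfip2*+/- mice. Without WT replicates 1 and 2 the median of the 12 genes was 0.11, with 4 at an unadjusted p below 0.05, and without *Cyfip2*+/- replicates 1 and 2 it was 0.12, with 2.

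**Figure D3:**
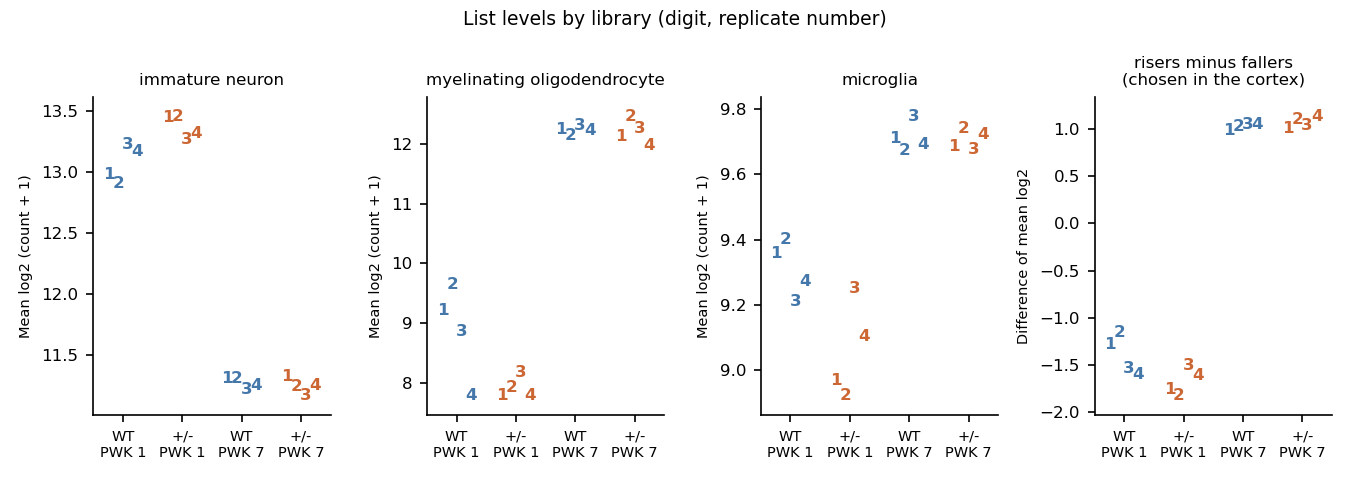
Mean log2 level of the genes of 3 lists, and the score of genes that rose minus genes that fell in the cortex, in each of the 16 libraries, drawn as the replicate number at its level. At PWK 1, replicates 1 and 2 of WT and of *Cyfip2*+/- mice lie at opposite ends in the immature neuron panel and the score panel, replicates 3 and 4 lie closer together, and at PWK 7 the genotypes overlap in all 4 panels.

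The level of each list in the PWK 1 libraries shows which of them set these differences. The mean log2 level of the immature neuron genes was 12.98, 12.90, 13.22 and 13.17 in WT replicates 1 to 4 and 13.44, 13.45, 13.26 and 13.31 in *Cyfip2*+/- replicates 1 to 4. All *Cyfip2*+/- libraries were above all WT libraries, with a gap of little width between WT replicate 3 and *Cyfip2*+/- replicate 3. That of the myelin genes was 9.21, 9.65, 8.87 and 7.79 in WT and 7.80, 7.93, 8.18 and 7.79 in *Cyfip2*+/- replicates, so WT replicate 4 lay among the heterozygotes. That of the microglia genes was 9.36, 9.40, 9.21 and 9.27 in WT and 8.97, 8.92, 9.25 and 9.10 in *Cyfip2*+/- replicates, so *Cyfip2*+/- replicate 3 lay among the WT libraries. In the cortex libraries with the same labels the myelin genes stood at 9.58, 10.24, 9.48 and 9.21 in WT and at 8.60, 8.77, 9.34 and 8.94 in *Cyfip2*+/- mice, highest in WT replicate 2 in both regions. At PWK 14 the median hippocampal difference was -0.01 for the immature neuron, -0.06 for the myelin and -0.02 for the microglia genes. The age in days at dissection is not given, and a difference in age within PWK 1 cannot be told apart from a difference between genotypes.

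Astrocyte genes had a median interaction of 0.06, with 9 of 12 positive. At an unadjusted p below 0.05, 3 were positive and 1 negative, where 3.25% and 3.66% of all genes were. *Gjb6*, a connexin of astrocyte gap junctions that appears late in development, was at 670, 682, 581 and 528 in WT and at 304, 328, 547 and 367 in *Cyfip2*+/- libraries at PWK 1, where *Cyfip2*+/- replicate 3 alone reached the WT range. It rose by 1.48 in WT and by 2.08 in *Cyfip2*+/- mice, with an interaction of 0.60 (SE 0.21). *S100b*, a calcium-binding protein of mature astrocytes, rose by 1.20 and 1.54. The negative astrocyte genes were *Mfge8* at -0.23 (SE 0.10), *Sox9* at -0.07 and *Aqp4* at -0.03. *Gja1* was at 0.05 and *Slc1a3* at 0.01. In the neural progenitor list, 11 of 15 interactions were negative, with a median of -0.18. *Fabp7*, the fatty acid binding protein of radial glia, fell in both genotypes, with courses of -2.20 in WT and -2.85 in *Cyfip2*+/- mice, an interaction of -0.65 (SE 0.22), and *Vim*, which encodes vimentin, had -0.41 (SE 0.17).

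Of 24 cell proliferation genes, 20 fell in each genotype, where 28.6% of all genes fell in WT and 30% in *Cyfip2*+/- mice, and the median interaction was -0.13. *Top2a*, the topoisomerase of dividing cells, had an interaction of -0.64 (SE 0.25), whereas *Espl1*, the protease that separates sister chromatids, had 1.51 (SE 0.54). *Espl1* was at 62.8, 203, 155 and 192 in WT and 234, 74.1, 89.3 and 142 in *Cyfip2*+/- libraries at PWK 1, which overlapped. At the later age it was at 39.0, 36.8, 36.6 and 52.4 in WT and 110, 62.7, 173 and 95.1 in *Cyfip2*+/- libraries, which were all above WT, so that this interaction came from PWK 7. It fell in WT mice by 1.75, and its course in *Cyfip2*+/- mice was -0.24 (adjusted p = 0.610, limma).

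Among the principal neurons, the dentate granule cell list had a median interaction of 0.14, the CA1 list 0.09, the CA3 and CA2 list 0.11 and the excitatory neuron list -0.08. In that order, the interaction was positive for 6 of 8, 4 of 7, 7 of 9 and 3 of 8 genes. With 1 library left out the CA1 median ran from -0.01 to 0.16 and the excitatory neuron median from -0.11 to 0.0041, both crossing 0. *C1ql2*, a synaptic organizer that granule cells secrete at mossy fiber terminals, was at 442, 496, 388 and 359 in WT and at 245, 215, 332 and 337 in *Cyfip2*+/- libraries at PWK 1, without overlap. At PWK 7 it was between 1724 and 2218 in WT and between 1790 and 2164 in *Cyfip2*+/- libraries. It rose by 2.20 in WT and by 2.84 in *Cyfip2*+/- mice, with an interaction of 0.65 (SE 0.19). *Rgs14*, a regulator of G protein signaling in CA2 neurons, had an interaction of 0.45 (SE 0.16), and *Slc17a7*, the vesicular glutamate transporter VGLUT1, had 0.27 (SE 0.12). Other members were negative, among them *Coch* of the CA3 and CA2 list at -0.38. *Neurod1* of the dentate granule cell list was at -0.18 and *Slc17a6* of the excitatory neuron list at -0.13.

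In the interneuron list the median was -0.06, with 8 of 14 interactions negative, and it ran from -0.10 to 0.01 with 1 library left out. At PWK 1, 7 of the 14 genes were lower in *Cyfip2*+/- mice at an unadjusted p below 0.05, against 6.71% of all genes. At PWK 7 the difference was below 0 for 14 of 14, and 2 passed that level, against 2.25% of all genes. The members with an unadjusted interaction p below 0.05 were *Pvalb* and *Kcnc2*. *Pvalb*, the calcium buffer of fast-spiking interneurons, was at 97.1, 139, 76.2 and 69.9 in WT and 18.8, 21.3, 54.9 and 52.8 in *Cyfip2*+/- libraries at PWK 1, without overlap. At the later age it was between 551 and 610 in WT and between 469 and 584 in *Cyfip2*+/- libraries. It rose by 2.64 and 3.95, an interaction of 1.31 (SE 0.40), which was 0.98 without WT replicates 1 and 2 and 0.62 without *Cyfip2*+/- replicates 1 and 2. *Kcnc2*, a potassium channel of the same cells, had an interaction of 0.30 (SE 0.11).

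Genes of synapses and excitability were mostly positive, by small amounts. The interaction was positive for 22 of 27 genes of the presynaptic release machinery (median 0.13, 6 at an unadjusted p below 0.05), for 21 of 25 genes of the postsynaptic scaffold (median 0.09, 3 at that level) and for 28 of 36 voltage-gated channel genes (median 0.10, 6 positive and 1 negative at that level). Over all genes, 3.25% were positive and 3.66% negative at that level. Without WT replicates 1 and 2 the presynaptic median was 0.09, and without *Cyfip2*+/- replicates 1 and 2 it was 0.04, with 0 genes at that level in both cases. *Vamp1*, a vesicle fusion protein of fast synapses, was at 1462, 1635, 1363 and 1234 in WT and 993, 849, 1311 and 1294 in *Cyfip2*+/- libraries at PWK 1, which overlapped. It rose by 1.27 in WT and by 1.70 in *Cyfip2*+/- mice. *Snap25*, its partner at the plasma membrane, had an interaction of 0.23 (SE 0.09), and *Dlgap1*, a scaffold protein of excitatory synapses, 0.28 (SE 0.11). *Scn4b*, a sodium channel subunit of fast-firing neurons, had 0.78 (SE 0.33), and *Hcn3*, a pacemaker channel that fell with age, -0.37 (SE 0.15).

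Glutamate receptor genes had a median interaction of 0.04 and genes of GABA receptors and chloride transport 0.05. Of the 24 glutamate receptor genes, 4 were lower in *Cyfip2*+/- mice at PWK 1 at an unadjusted p below 0.05, against 6.71% of all genes. At PWK 7, 4 were lower at that level, against 2.25%. The NMDA receptor subunits *Grin2a* and *Grin3a*, the members with the smallest interaction p, each changed in the same direction in both genotypes. *Grin2a*, the subunit of mature synapses, rose by 1.05 in WT and by 1.37 in *Cyfip2*+/- mice, and the juvenile subunit *Grin3a* fell, with courses of -1.48 and -1.80. Their interactions were 0.31 (SE 0.13) and -0.32 (SE 0.10). *Slc12a5*, the chloride exporter KCC2 that makes GABA inhibitory, rose by 0.29 and 0.44, an interaction of 0.15 (SE 0.08).

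Axon guidance genes had a median of -0.05, with 25 of 42 negative, and *Sema3c*, *Plxna3* and *Draxin*, which encode a guidance cue, a semaphorin receptor and a repulsive guidance protein, had -0.25, -0.27 and -0.50. In the perineuronal matrix list (median -0.13), *Tnc* and *Vcan*, components of the juvenile matrix, had interactions of -0.58 (SE 0.17) and -0.40 (SE 0.16), while *Hapln4*, a link protein of mature nets, had 0.80 (SE 0.34). *Mapt*, which encodes tau, was the most negative of the mature cytoskeleton list (median -0.01), at -0.35 (SE 0.11).

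Cytosolic ribosomal protein genes had small interactions of a single sign, negative for 36 of 36 genes, with a median of -0.09 and 9 at an unadjusted p below 0.05, against 3.66% of all genes. The median difference was 0.07 at PWK 1 and -0.03 at PWK 7. *Rpl30* was at 2918, 2873, 3139 and 3020 in WT and 3191, 3450, 3147 and 2970 in *Cyfip2*+/- libraries at PWK 1, and at 3403, 3482, 3665 and 3614 in WT and 3062, 3560, 3144 and 3111 in *Cyfip2*+/- libraries at PWK 7. The genotypes overlapped at both ages, and its interaction was -0.23 (SE 0.07). Without WT replicates 1 and 2 the median of the list was -0.05, with 3 genes at that level, as it was without *Cyfip2*+/- replicates 1 and 2. Ribosomal protein genes have many processed pseudogenes that share their reads. Nuclear genes of the respiratory chain had a median of 0.06 (20 of 25 positive) and mitochondrial genes 0.04.

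The remaining lists held few genes with a small p. Immediate early genes had a median of 0.14, with *Jun* at 0.22 (SE 0.07) and *Bdnf* at 0.28 (SE 0.10). Circadian and glucocorticoid genes had 0.13, interferon response genes 0.13, neuropeptide genes -0.07, sterol genes -0.05, endothelial and mural genes -0.02, ependymal genes 0.18, meningeal genes -0.22 and red blood cell genes -0.07. With 1 library left out, the median crossed 0 for the interferon (-0.02 to 0.19), meningeal (-0.39 to 0.06), red blood cell (-0.27 to 0.18) and endothelial (-0.09 to 0.06) lists. It ran from 0.04 to 0.41 for the ependymal and from 0.0078 to 0.23 for the immediate early list. Markers of neighboring tissue had medians of -0.09 (thalamus) and -0.07 (striatum). *Ifit1*, an interferon-induced gene of low level, had an interaction of 1.25 (SE 0.42).

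Marker levels of the choroid plexus, which lies beside the hippocampus, differed widely between libraries. The summed count of the 10 choroid plexus markers ran from 2445 to 73344 in *Cyfip2*+/- and from 2667 to 23575 in WT libraries at PWK 1. At PWK 7 it ran from 74033 to 267017 and from 51392 to 116612. *Ttr*, its most abundant transcript, was at 208, 17071, 1500 and 16236 in WT and at 59594, 59936, 363 and 11748 in *Cyfip2*+/- libraries at PWK 1, so it was highest in *Cyfip2*+/- replicates 1 and 2. Of the 10 genes, 9 rose in WT (28.2% of all genes) and 8 in *Cyfip2*+/- mice (30.8% of all genes), and the median interaction was -0.48. It was -0.18 without WT replicates 1 and 2 and 1.10 without *Cyfip2*+/- replicates 1 and 2, and it ran from -1.64 to 0.14 with 1 library left out. Whether the rise was a change with age or a larger amount of choroid plexus in the libraries was not tested. The part of the choroid plexus in the other results was not tested.

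**Figure D4:**
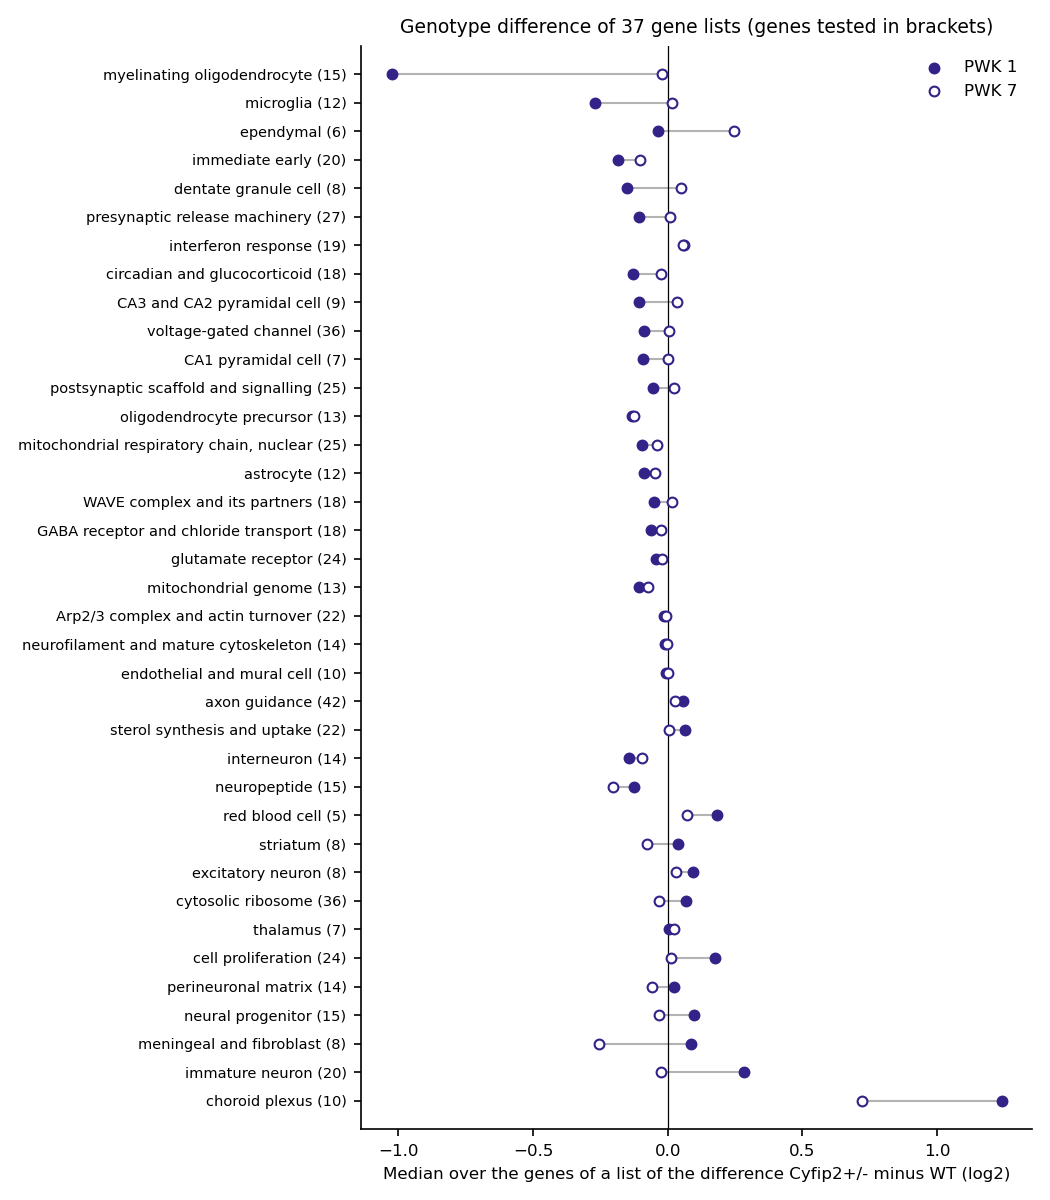
Median difference between *Cyfip2*+/- and WT mice (horizontal axis, log2) over the genes of each of 37 lists, at PWK 1 (filled) and PWK 7 (open), ordered by the median interaction with the most negative at the bottom. The median of the myelinating oligodendrocyte list moves from -1.03 to -0.02 and that of the immature neuron list from 0.28 to -0.03. The median of the oligodendrocyte precursor list is -0.13 at both ages, although its members differ.

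By gene, the smallest interaction p belonged to the following, chosen as the 12 positive and 12 negative protein-coding genes with the smallest p and a mean count of at least 100. Because this choice used the interaction itself, their values are a description, and the adjusted p of each was 0.629 (limma). *Ptgs2*, the inducible cyclooxygenase COX-2 of excitatory neurons, was at 327, 357, 279 and 290 in WT and 148, 138, 203 and 224 in *Cyfip2*+/- libraries at PWK 1. By PWK 7 it was at 807, 746, 734 and 734 in WT and 762, 702, 773 and 791 in *Cyfip2*+/- libraries. The groups were apart at PWK 1 and overlapped at PWK 7. It rose by 1.27 in WT and by 2.11 in *Cyfip2*+/- mice, with an interaction of 0.84 (95% interval 0.46 to 1.21), which was 0.55 without *Cyfip2*+/- replicates 1 and 2.

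For *Tubb2b*, *Hsdl1*, *Fabp5* and *Clcn5* the *Cyfip2*+/- libraries lay above all WT libraries at PWK 1 and below all of them at PWK 7. Over all genes, 3.32% lay above at PWK 1 and 1.22% below at PWK 7, each age taken alone. The share with both was not counted, and a choice by the interaction favors such genes. *Hsdl1*, of the hydroxysteroid dehydrogenase-like family, was at 1481, 1433, 1578 and 1630 in WT and 1771, 1723, 1693 and 1709 in *Cyfip2*+/- libraries at PWK 1. At PWK 7 it was at 1336, 1275, 1393 and 1379 in WT and 1251, 1176, 1201 and 1245 in *Cyfip2*+/- libraries. It fell in both genotypes, with courses of -0.18 in WT and -0.50 in *Cyfip2*+/- mice. *Fabp5*, a fatty acid binding protein, had courses of -1.29 and -1.61, and *Clcn5*, an endosomal chloride-proton exchanger, of -0.87 and -1.31, all of them falls. The interactions of these 3 genes were -0.32, -0.32 and -0.44. The separation of *Fabp5* at PWK 1 was narrow, since WT reached 8362 and the lowest *Cyfip2*+/- library was at 8379.

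The other negative genes of this choice ranged from -0.18 (*Dync1i2*, an intermediate chain of dynein) to -0.72 (*Dpysl3*). *Jpt1*, a microtubule-associated protein of developing brain, was at 3421, 3255, 3825 and 3773 in WT and 4807, 4779, 4166 and 4353 in *Cyfip2*+/- libraries at PWK 1, without overlap, and had an interaction of -0.35 (SE 0.08). *Amz2*, a metallopeptidase, had -0.42, *Arf2*, a small GTPase of membrane traffic, -0.25, *Btf3*, a subunit of the complex that binds nascent polypeptides, -0.23, *Ddx21*, a nucleolar RNA helicase, -0.39, and *2700081O15Rik* -0.34. All of these fell with age in both genotypes.

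Some of the positive genes fell in WT mice and did not pass in *Cyfip2*+/- mice. *Zfp280d*, a zinc finger gene, was at 1291, 1246, 1298 and 1336 in WT and 1331, 1151, 1170 and 1234 in *Cyfip2*+/- libraries at PWK 1, which overlapped. In the PWK 7 libraries it was at 1170, 1128, 1161 and 1079 in WT and 1350, 1232, 1308 and 1323 in *Cyfip2*+/- mice, all above WT. It fell by 0.19 in WT (adjusted p = 0.00409, limma) and had a course of 0.09 in *Cyfip2*+/- mice (adjusted p = 0.114, limma). *Plekha7*, an adherens junction protein, fell by 0.37 in WT and had a course of -0.07 in *Cyfip2*+/- mice. *Ccl25*, a chemokine, rose by 0.42 in *Cyfip2*+/- mice and had -0.02 in WT mice. *Xrcc3*, which acts in homologous recombination, *Ghitm*, of the inner mitochondrial membrane, *Nol3*, an inhibitor of apoptosis, *Parvg*, an adaptor of integrins in hematopoietic cells, and *Tmem88b* rose in both genotypes, with interactions of 0.82, 0.24, 0.48, 0.66 and 0.75.

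**Figure D5:**
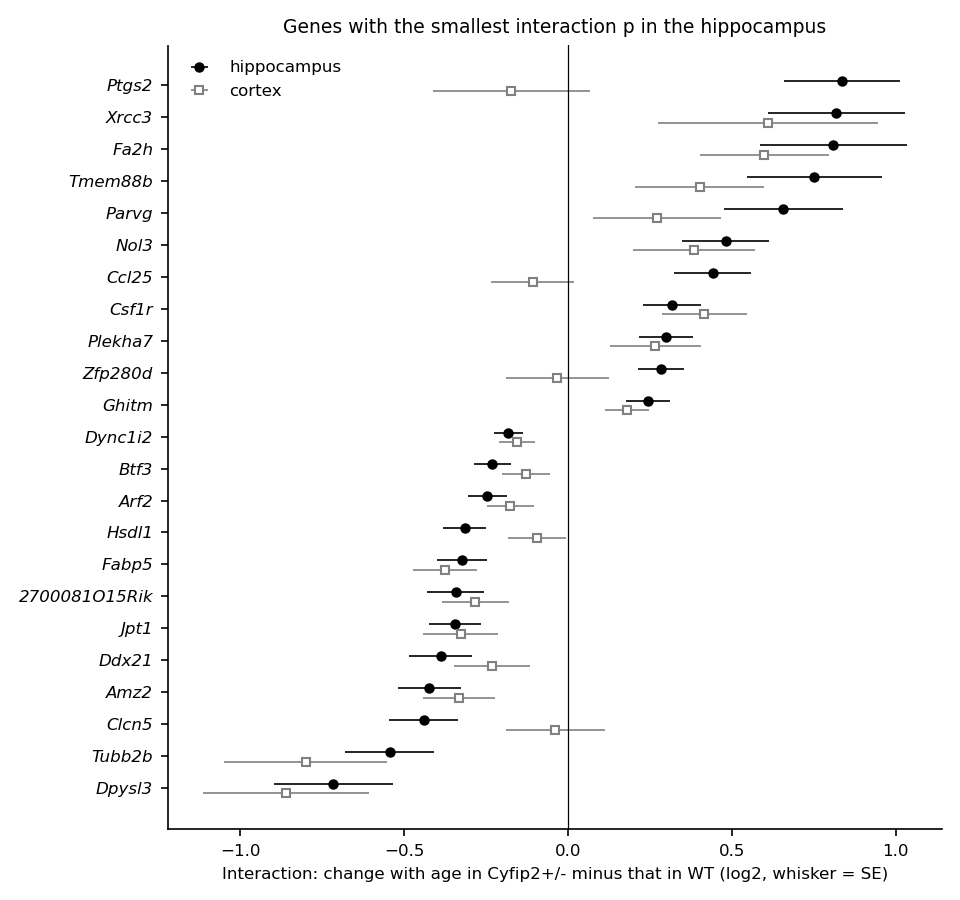
Interaction (horizontal axis, log2, with SE as whiskers) in the hippocampus (filled) and in the cortex (open) of genes with the smallest interaction p in the hippocampus. *Ptgs2* lies at 0.84 in the hippocampus and -0.17 in the cortex, whereas *Tubb2b* and *Dpysl3* lie below -0.5 in both regions.

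The same interaction in the frontal cortex gave 0 genes at an adjusted p below 0.05 (limma, smallest 0.277) and 1740 of 17491 (9.95%) at an unadjusted p below 0.05, 799 positive (4.57%) and 941 negative (5.38%). The difference of the interactions between hippocampus and cortex was tested with the mouse as a block. None of 18141 genes passed (limma, smallest adjusted p 0.319), and 958 (5.28%) had an unadjusted p below 0.05. For *Ptgs2* and *Ccl25* the difference was 1.01 and 0.55 (adjusted p = 0.772 for both, limma), which is a description, since they were chosen by the hippocampal interaction that it contains. The median cortical interaction was -0.33 for the immature neuron list, 0.62 for the myelin list and 0.26 for the microglia list, beside -0.33, 0.98 and 0.22 in the hippocampus.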

How the data were processed

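Processed values of 48 libraries were used, and the 16 from the hippocampus at PWK 1 and PWK 7 entered the main fits. The deposited values are normalized counts, a linear signal. The authors ran Salmon (0.11.2 in the submitters' processing notes) on GRCm38, summed transcripts to genes and scaled them with DESeq2 (1.19.11), a version that differs from that in the paper's methods. The labels name a poly(A) kit and the methods a total RNA kit. The annotation release and gene filter are not given in the sources used here. GENCODE vM21 names matched 18414 of 18428 identifiers. Values were not counts, so no count model was used.

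Genes at 10 or more in at least 4 of the 16 libraries were fitted with limma 3.58.1 (R 4.3.3; lmFit, eBayes with trend) on log2(value + 1) with 4 group means, and p-values were Benjamini-Hochberg adjusted over all genes. Fold changes on this scale understate the change of low genes. *Cyfip2* was also tested by exact permutation of genotypes within age (4900 arrangements, smallest p 0.000408). Depth was estimated from the steps between low values of single-transcript genes, where 69.6% to 97.7% of values lay within 0.1 of a whole multiple.

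Named genes were *Cyfip2*, *Cyfip1*, the 12 positive and 12 negative interactions of smallest p (protein coding, mean of at least 100), and members of each list with the smallest interaction p or the largest WT change. In addition, genes described with their list were chosen after their values were seen. Some genes that meet these rules are not reported here. The groups, gene lists and rules were chosen with earlier results of these data known. Scripts were tested on simulated data. Alternatives were other scalings, filters of none and of 50 in every library, pseudocounts of 0.1 and 10, robust or untrended variance, array weights, 24 or 48 libraries in a fit, a replicate block and leaving out libraries. Leaving out pairs of replicates was added after the data were seen.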

Additional observations from a re-analysis of the deposited data

Results flagged for a closer look

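In 14 of 256 groups of 4 libraries, a library lay far from the other 3 (Dixon's test), where chance gives about 1 in 20, or 13. At PWK 7 in WT mice, *Cyfip1* was at 4312 in replicate 1 (3985 to 4035 in the others) and *Csf1r* at 3603 in replicate 2 (3253 to 3263). At PWK 7 in *Cyfip2*+/- mice, replicate 4 was high for *Amz2*, at 1594 (1443 to 1462), and for *Jpt1*, at 1862 (1726 to 1747). At PWK 1, *Parvg* was at 176 in *Cyfip2*+/- replicate 3 (136 to 139) and *Clcn5* at 851 in WT replicate 4 (740 to 753).

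The mean log2 level of a list stood apart as follows. The ependymal genes were at 7.06 in WT replicate 3 at PWK 7 (6.69 to 6.74), and the postsynaptic genes at 12.96 in the same library (13.03 in the others). The mature cytoskeleton genes were at 13.50 in *Cyfip2*+/- replicate 3 at PWK 1 (13.41 to 13.42). In WT mice of that age, replicate 2 had 13.50 for them (13.44 to 13.45). In WT replicate 4 at PWK 7 the immediate early genes were at 10.56 (9.76 to 9.89) and the circadian and glucocorticoid genes at 10.61 (10.29 to 10.32). *Cyfip2*+/- replicate 4 at PWK 7 was not flagged but was also the highest of its group for both lists. Its levels were 10.26 (9.50 to 10.12) and 10.60 (10.27 to 10.36). The circadian and glucocorticoid genes were also high in *Cyfip2*+/- replicate 3 at PWK 1, at 9.69 (9.58 to 9.60). The nuclear respiratory chain genes were at 12.16 in *Cyfip2*+/- replicate 2 at PWK 7 (12.14 to 12.15).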

How the results depend on the processing

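The number of genes with an interaction at an adjusted p below 0.05 was 0 in 13 of 14 settings other than leaving out 1 library, and 1 without both *Cyfip2*+/- replicates 1 and 2 of PWK 1, where *Snx25* passed. With 1 library left out it was 0 to 5. It was 5 without WT replicate 4 of PWK 1 and 1 without *Cyfip2*+/- replicate 4 of PWK 1, where *Gm38226* passed (4.72, adjusted p = 0.00157, limma). The unadjusted count of 1215 became 663 and 694 without the WT and the *Cyfip2*+/- pair, 1162 with the replicate block, and 868 to 1560 with 1 library left out. The 2 genes that passed at PWK 1 became 1 with quantile normalization, no trend or the replicate block, 4 with the filter of 50, 5 with array weights, 48 and 83 with 24 and 48 libraries in the fit, 0 without the WT pair and 1 to 97 with 1 library left out. At PWK 7 the count was 1 to 2 with 1 library left out. The *Cyfip2* interaction ranged from -0.046 to 0.032 with 1 library left out, crossing 0. *Hba-a1* and *Hba-a2*, near-identical copies, reached 0.069 and 0.075 with 1 library left out (lowest -0.32 and -0.35), and *Hba-a1* was at 0.045 and 0.032 without the WT and the *Cyfip2*+/- pair. *Kcne2* and *Slc4a5*, choroid plexus genes, became 0.38 and 0.58 without the *Cyfip2*+/- pair. The causes were not tested. Of 1322 values of 95 named genes under other settings 1318 kept their direction, and of 1520 with 1 library left out 1508 did. The counts for change with age stayed within 1.5 times. Replicate numbers were not taken to pair the mice in the main fits. Deviations from group means correlated by a median of 0.01 for the same number and -0.0044 for other numbers. Of 24 pairs with the same number 2 were above 0.1, and 7 of 16 libraries correlated best with their own number. Whether mice of the same number shared handling was not tested. The test between regions gave 0 in each fit. Depth is an estimate, and 4 mice per group and a spread (residual SD) of 0.14 limit what can be seen.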
